A study of Mus musculus with 2 samples.

Results

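The 10 genes described here encode secreted or surface proteins of mucosal defence. They are the lectins Reg3b and Reg3g, the iron-handling proteins Lcn2, Ltf and Hamp, and the Hamp paralogue Hamp2. The others are the antibody transporter Pigr, the protease inhibitor Slpi, the ribonuclease Rnase1 and the glycoprotein Lrg1. The members are 10 of the 28000 features measured in both libraries. They were chosen from their measured levels across luminal subtypes and genotypes in these same libraries, so every level and ratio of a member is given as a description, with no test.

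The study asked how hepatocyte growth factor, its receptor MET and canonical Wnt signalling act together in prostate oncogenesis, and single cells of prostate tissue of both genotypes were profiled by 10x Genomics 3′ chemistry. DoubleTg mice carried hHGFtg, a ubiquitous human HGF transgene, and H11 hMET/+, a human MET cDNA behind a stop cassette that Cre removes, with PB Cre4, a Cre driven by the probasin promoter in prostatic epithelium. TripleTg mice carried the same 3 alleles and Ctnnb1 L(Ex3)/+, an allele from which Cre removes exon 3 to give a stabilised β-catenin. The DoubleTg tissue was labelled prostatic adenocarcinoma and the TripleTg tissue prostatic carcinoma, and both came from stock of mixed C57BL/6 and C3H SCID background. Each genotype had 1 library, with the age of these mice and the number of mice per library not given in the sources used here, so no difference between genotypes has a replicate check, and genotype, tissue and library cannot be told apart.

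Secretory epithelia protect their lumen by several routes. Lectins and iron-binding proteins are released to kill bacteria or to starve them of iron, the polymeric immunoglobulin receptor carries IgA across the cell, and antiproteases limit damage by leukocyte enzymes. In the gut and airway many of these genes are induced by interleukin-17 and interleukin-22 through STAT3, NF-kappaB and C/EBP factors, and hepcidin is induced in the liver by BMP and interleukin-6 signalling. The prostate is a further mucosal gland in which luminal cells make most of the secretion, and its lobes differ in the secretory proteins they make.

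After the limits on genes and mitochondrial reads, 10598 DoubleTg and 9492 TripleTg cells remained, with medians of 16761 and 20097 unique molecular identifiers (UMIs, 1 for each captured RNA molecule), and 29 cell barcodes were present in both libraries. Cells were grouped separately in the 2 libraries, without the 10 members among the genes used, which gave 10 luminal-like clusters with 4779 cells in DoubleTg and 9 with 4745 cells in TripleTg. Their median depths were 36079 and 25748 UMIs per cell. The luminal-like cells of the 2 libraries differed in the markers of secretory cells. Msmb, a secreted protein of distal luminal cells, was between 90.4 and 18740 UMIs per 1000000 UMIs of the cells summed (CPM) in the DoubleTg luminal-like clusters and at 0 UMIs in each TripleTg luminal-like cluster. Axin2, a target of β-catenin, was between 0.255 and 5.51 CPM in the DoubleTg luminal-like clusters and between 57.4 and 137 CPM in the TripleTg ones. At the unequal depths above, at least 1 hMETtg UMI was seen in 85.0% of DoubleTg and 34.7% of TripleTg luminal-like cells. The luminal-like name rests on the detection of luminal markers in most cells of a cluster: the 10 leading genes held no luminal marker in 8 of 9 TripleTg and 5 of 10 DoubleTg luminal-like clusters. Clusters are called by genes that lead them, and no DoubleTg cluster is taken as the counterpart of a TripleTg one.

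Over all luminal-like cells, 3 of the 10 members, Slpi, Ltf and Lcn2, were at least 2-fold higher in TripleTg. Among 9053 genes that reached 5 CPM in 1 library or both, 11.8% were at least 2-fold higher. Another 6 members, Reg3g, Reg3b, Hamp2, Lrg1, Pigr and Hamp, were at least 2-fold lower in TripleTg, where 12.7% of all genes were. Rnase1 alone lay within 2-fold. Over all epithelial-like cells each ratio kept its direction, but it moved by over 1.5 times for several members, to -1.85 on the log2 scale for Reg3b, -3.44 for Reg3g, -4.01 for Hamp2, -3.30 for Lrg1, 5.90 for Ltf, 6.49 for Slpi and 1.82 for Lcn2. The median log2 ratio of the members was -2.58, and that of all genes was -0.01. Because the members were picked for such patterns, these counts say nothing beyond the choice itself.

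**Figure D1:**
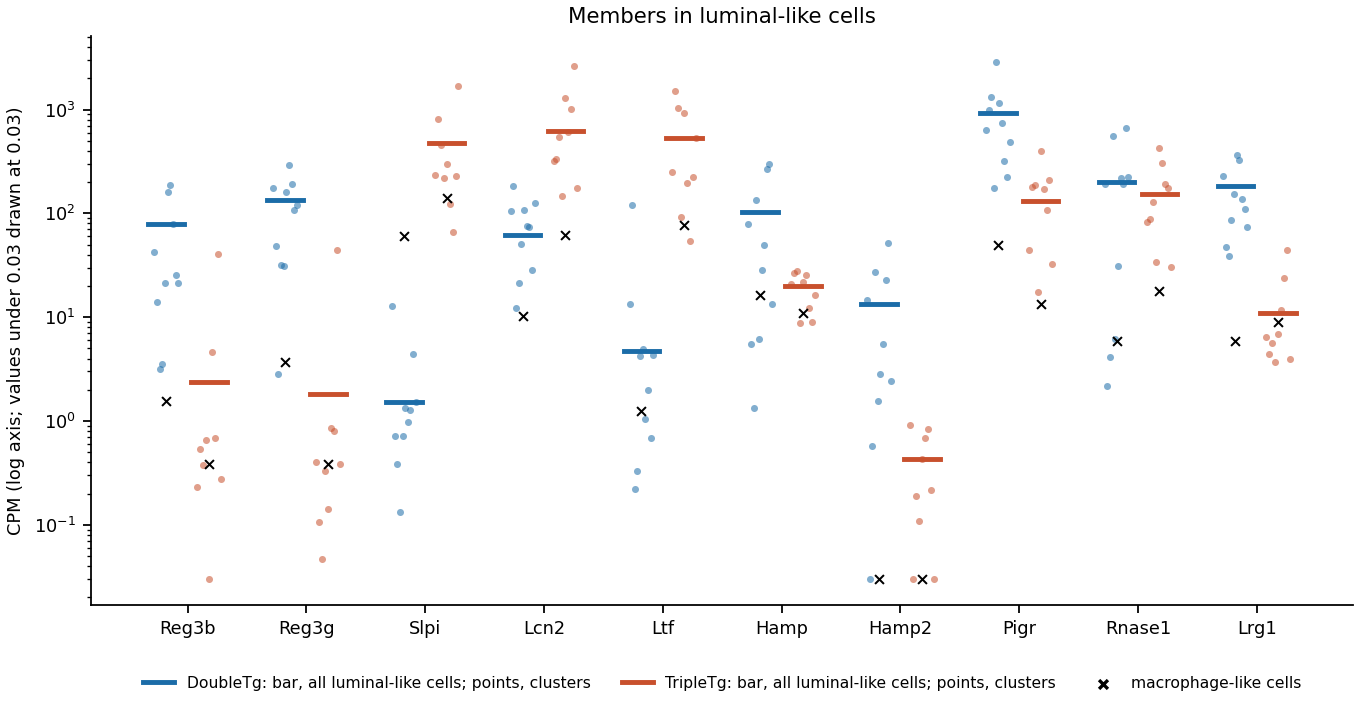
Level of each member in luminal-like cells (CPM, log axis). Bars stand for all luminal-like cells of a library, points for its luminal-like clusters (10 DoubleTg, 9 TripleTg), crosses for the macrophage-like cells of the same library as a measure of free RNA, and values under 0.03 are drawn at 0.03. For Slpi, which macrophages are also known to make, the cross is not free RNA alone. Slpi, Ltf and Lcn2 stand higher in TripleTg, Rnase1 is at 199 and 154 CPM, and the other members stand lower in TripleTg.

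Droplet libraries hold free RNA from broken cells, so each level was read beside that in macrophage-like and dendritic-like cells of the same library. In DoubleTg the macrophage-like cells held 1.55 CPM of Reg3b, 3.71 CPM of Reg3g, 16.4 CPM of Hamp and 50.1 CPM of Pigr. In TripleTg they held 61.4 CPM of Lcn2, 76.5 CPM of Ltf and 141 CPM of Slpi, the last of which macrophages are also known to make. The cluster named neutrophil-like held 702, 555 and 906 CPM, but epithelial markers were seen in a mean of 75.8% of its 158 cells, 37 passed the doublet threshold and 99 had under 5000 UMIs. Other TripleTg classes also held more than the macrophage-like cells: fibroblast-like, endothelial-like and smooth muscle-like cells had 227, 297 and 444 CPM of Lcn2, 145, 256 and 212 CPM of Ltf, and 62.3, 28.5 and 31.5 CPM of Rnase1. For Slpi these classes had 177, 72.1 and 149 CPM, so only the endothelial-like cells were below the macrophage-like ones. Endothelial-like cells of DoubleTg, at a median depth of 6134 UMIs, held more than the macrophage-like cells, with 205.5 CPM of Pigr, 43.2 CPM of Hamp and 22.9 CPM of Reg3b, the last in 7 of 277 cells. T and NK-like cells of DoubleTg had 319.8 CPM of Pigr, 59.9 CPM of Reg3b and 50.6 CPM of Reg3g, with Reg3b in 11 of 438 cells, and smooth muscle-like cells had 333 CPM of Pigr. A cluster is called above this level below when the 95% Poisson interval of its CPM lies over that of the macrophage-like or dendritic-like cells, whichever is higher. All intervals cover counting error only. Slpi was not above the level of these classes in any DoubleTg luminal-like cluster, nor Hamp2 in any TripleTg one. Among TripleTg luminal-like clusters, Lrg1 was above it only in clusters 11 and 15, and Reg3b and Reg3g only in cluster 15. The ratios of these genes therefore compare summed UMIs, and the size of the difference in expression is not known.

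**Figure D2:**
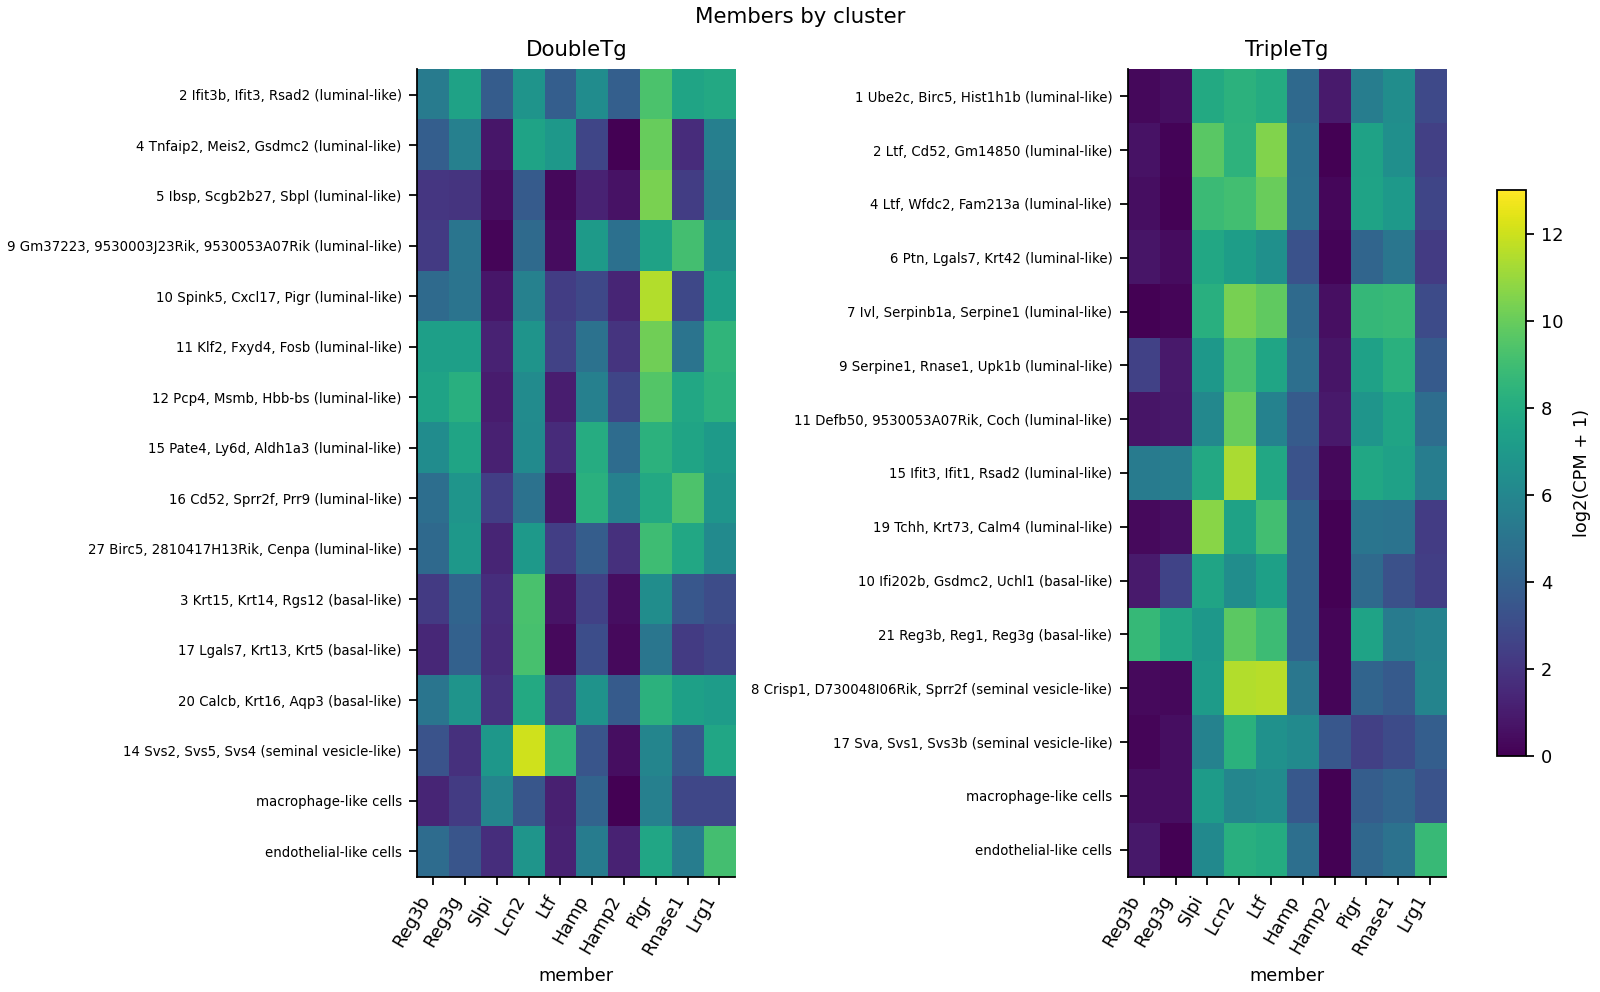
Level of each member, as log2(CPM + 1), in each epithelial-like cluster (luminal, basal or seminal vesicle) of DoubleTg (left) and TripleTg (right), with macrophage-like and endothelial-like cells below. Rows give the cluster number and its 3 leading genes. In DoubleTg the Reg3 pair, the hepcidin pair and Pigr are brightest in different luminal-like rows, and in TripleTg Lcn2, Ltf and Slpi are bright in most luminal-like rows while Reg3b and Reg3g are bright in the basal-like cluster 21.

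Reg3b and Reg3g are C-type lectins that gut epithelium secretes against bacteria, and Reg3g binds the peptidoglycan of gram-positive cells. Both lie on chromosome 6 (GRCm38, GENCODE vM21), Reg3b at 78370657 to 78373466 on the plus strand and Reg3g at 78466269 to 78468872 on the minus strand, 92802 bases apart. Their longest transcripts were 74.4% identical over the aligned bases, with a longest shared run of 35 bases. The promoter windows (RefSeq, GRCm38.p6, 250 bases before to 50 after the start) are shown since the pair had like levels across clusters. Capitals mark a STAT match (TTCNNNGAA) in Reg3b, and an NF-kappaB match followed by a TCF match (CTTTGAT) in Reg3g, at chr6:78370635-78370934 (plus strand) and chr6:78468825-78469124 (minus strand).
Reg3b: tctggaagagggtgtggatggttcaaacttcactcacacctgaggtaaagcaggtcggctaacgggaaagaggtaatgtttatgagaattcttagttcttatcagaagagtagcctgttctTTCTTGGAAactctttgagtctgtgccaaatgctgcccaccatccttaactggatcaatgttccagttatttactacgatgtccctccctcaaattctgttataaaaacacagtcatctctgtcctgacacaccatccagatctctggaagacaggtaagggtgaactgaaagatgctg
Reg3g: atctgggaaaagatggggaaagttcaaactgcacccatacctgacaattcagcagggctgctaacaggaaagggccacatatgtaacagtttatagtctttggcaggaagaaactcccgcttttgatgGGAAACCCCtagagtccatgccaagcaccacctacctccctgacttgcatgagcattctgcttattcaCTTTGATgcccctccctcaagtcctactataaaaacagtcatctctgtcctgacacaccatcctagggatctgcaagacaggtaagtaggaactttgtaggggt

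In DoubleTg, Reg3b and Reg3g were both highest in the Msmb-led luminal-like cluster and both lowest in the Sbpl-led one. Reg3b was 186 CPM in the Msmb-led cluster 12, followed by the Fxyd4-led cluster 11 at 161 CPM, in which markers of proximal ducts summed to 40690 CPM, and the Aldh1a3-led cluster 15 at 78.7 CPM. Reg3g stood at 291 CPM in cluster 12, 192 CPM in cluster 15, 176 CPM in the interferon-led cluster 2 (Ifit3b, Ifit3, Rsad2) and 160 CPM in cluster 11. In the Sbpl-led cluster 5, a population with Sbp at 339000 CPM, Reg3b was 3.15 CPM and Reg3g 2.86 CPM. The intervals of the highest and second clusters did not overlap for either gene. Reg3b was above the macrophage-like and dendritic-like level in 8 of 10 luminal-like clusters, the exceptions being 5 and 9, and Reg3g in 9 of 10.

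The lectins came from few cells. At an equal depth of 5000 UMIs per cell, 16.9% of cluster 12 cells held a Reg3b UMI and 35.6% a Reg3g UMI. Over all DoubleTg luminal-like cells, 62 cells (1.3%) held 50% of all Reg3b UMIs, and 137 cells (2.87%) held 50% of the Reg3g UMIs. The richest cell carried 447 UMIs of Reg3b. At that depth 318 of the 458 cells with Reg3b also had Reg3g, out of 992 cells with Reg3g, and the Spearman rho of the pair was 0.42 across 4686 cells, which share a library and are no replicates.

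In TripleTg luminal-like cells the lectins were near the level of free RNA. Reg3b was 78.45 CPM in DoubleTg and 2.35 CPM in TripleTg (log2 ratio -5.06, 95% interval -5.22 to -4.91) and Reg3g was 136 and 1.82 CPM (log2 ratio -6.22, interval -6.39 to -6.04). Only the interferon-led cluster 15 (Ifit3, Ifit1, Rsad2) was above the macrophage-like and dendritic-like level, with 40.9 CPM of Reg3b and 44.3 CPM of Reg3g. In that cluster 1 cell of 167 held more than 50% of the Reg3b UMIs, and 1 cell held more than 50% of the Reg3g UMIs. Without cluster 15 the TripleTg luminal-like level was 1.10 CPM for Reg3b and 0.439 CPM for Reg3g. The Reg3b ratio also depended on the clustering: it was -1.63, and that of Reg3g -3.19, when the members were allowed among the genes used to cluster.

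In basal-like cells the values lay the other way. Reg3b was 7.54 CPM in DoubleTg and 148 CPM in TripleTg, and Reg3g was 31.6 and 83.2 CPM. Nearly all of the TripleTg signal was in basal-like cluster 21, which was led by Reg3b, Reg1 and Reg3g and held 415 CPM of Reg3b and 224 CPM of Reg3g. Its basal markers were seen in a mean of 65.5% of its 411 cells, where the basal-like name asked for 60%. Krt5 was 366 CPM in it against 1325 CPM in the TripleTg basal-like cluster 10, and markers of proximal ducts summed to 7914 and 6557 CPM. Within cluster 21, 5 cells held 50% of the Reg3b UMIs and 6 cells held 50% of the Reg3g UMIs, the richest with 638 UMIs of Reg3b, and 54 cells had any. Of its cells 24 passed the doublet threshold. Without cluster 21 the TripleTg basal-like cells had 0.936 CPM of Reg3b and 5.21 CPM of Reg3g, below the DoubleTg values (log2 ratios -3.01 and -2.60). The DoubleTg values in turn rested on the Calcb-led cluster 20, with 58 of 121 cells past the doublet threshold, without which Reg3b was 2.46 CPM and Reg3g 16.2 CPM (log2 ratios 5.91 and 2.36 with cluster 21 kept).

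**Figure D3:**
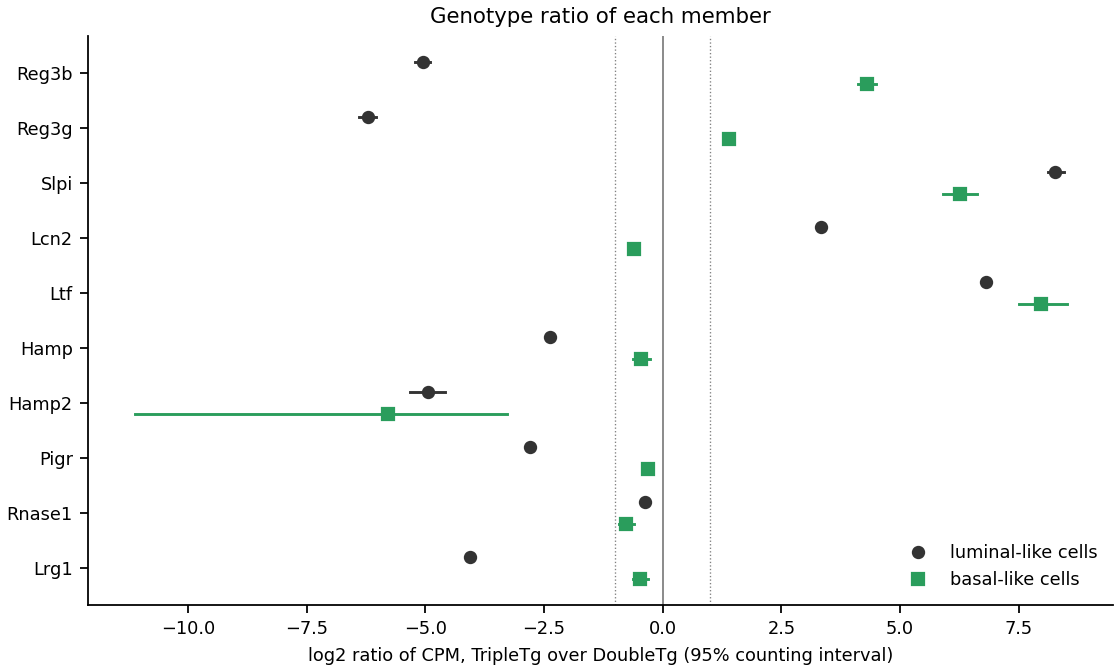
Log2 ratio of CPM, TripleTg over DoubleTg, for each member in luminal-like cells (circles) and basal-like cells (squares), with 95% conditional binomial intervals that cover counting error only; dotted lines mark 2-fold. Reg3b lies at -5.06 in luminal-like and 4.30 in basal-like cells, Reg3g at -6.22 and 1.40, and Slpi and Ltf are higher in both classes.

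Lcn2 (chromosome 2, 32384633 to 32388252, minus strand, 6 exons) is a lipocalin that captures bacterial siderophores and is also a neutrophil granule protein. In DoubleTg it was mainly a gene of other epithelia: 41.5% of its UMIs lay in the 126 seminal vesicle-like cells (4252 CPM), 31.5% in basal-like cells and 22.7% in luminal-like cells. The basal-like clusters led by Krt15 and by Lgals7 had 614 and 594 CPM, and 67.8% and 67.9% of their cells held a UMI at 5000 UMIs per cell. DoubleTg luminal-like clusters ranged from 12.4 CPM in the Sbpl-led cluster 5 to 184 CPM in the Gsdmc2-led cluster 4. In TripleTg luminal-like cells Lcn2 was 623 CPM against 62.2 CPM, 10-fold higher (log2 ratio 3.32, interval 3.30 to 3.35). Over all epithelial-like cells it was 3.53-fold higher (223 and 788 CPM), and in seminal vesicle-like cells it was lower (4252 and 2214 CPM), although most of these TripleTg cells were of cluster 8, described below with Ltf, which is unlike the DoubleTg cluster. All 9 luminal-like clusters were above the macrophage-like level of 61.4 CPM, from 148 CPM in the Krt42-led cluster 6 to 1288 CPM in the Serpinb1a-led cluster 7 and 2650 CPM in the interferon-led cluster 15, but clusters 6 and 19 (176 CPM) were below the fibroblast-like level of 227 CPM. In basal-like cells it was 539 CPM in DoubleTg and 356 CPM in TripleTg, and 83.0 CPM in TripleTg without cluster 21.

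Ltf (chromosome 9, 111019271 to 111042767, plus strand, 17 exons) encodes lactoferrin, an iron-binding protein of milk, semen and neutrophil granules. In DoubleTg it was close to absent from luminal-like cells at 4.76 CPM, and 54.6% of the luminal-like UMIs came from the 119 cells of the Gsdmc2-led cluster 4 (121 CPM, 22.0% of cells at 5000 UMIs). Without that cluster the level was 2.21 CPM. Most of its DoubleTg UMIs, 62.3%, lay in seminal vesicle-like cells. In TripleTg luminal-like cells Ltf was 535 CPM, 112-fold higher (log2 ratio 6.81, interval 6.72 to 6.91). The size of this ratio was uncertain, since 6 of 10 DoubleTg luminal-like clusters were not above the macrophage-like level: it was 5.13 with every cluster at the same weight, 7.42 in cells with hMETtg and 7.92 without DoubleTg cluster 4. It was highest at 1497 CPM in cluster 2, a cluster led by Ltf itself, Cd52 and the alpha-defensin gene Gm14850, where 77.2% of cells held a UMI at 5000 UMIs. The Fam213a-led cluster 4 followed at 1037 CPM and the Serpinb1a-led cluster 7 at 918 CPM. It was lowest in the Coch-led cluster 11 at 53.8 CPM, which was under the macrophage-like level of 76.5 CPM and is not read as expression. The Crisp1-led cluster 8 of TripleTg, in which Pate4 and Svs4 were among the 10 leading genes but seminal vesicle markers were up by a mean of only 1.53 on the log2 scale, had 3063 CPM, and the Sva-led seminal vesicle-like cluster 17 had 92.8 CPM.

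Hamp encodes hepcidin, the liver hormone that removes the iron exporter ferroportin from cell surfaces, and Hamp2 is its mouse paralogue. They are neighbours on the minus strand of chromosome 7, Hamp at 30942368 to 30944032 and Hamp2 at 30922372 to 30924681, with 17686 bases between them. Their transcripts were 94.6% identical, with a shared run of 87 bases, so reads may have been shared or lost between them and the Hamp2 level is uncertain. The promoter windows were 92.9% identical and are shown for the 1 motif that sets them apart. In capitals are the BMP response element letters GGCGCC and the STAT match in Hamp, and the STAT match in Hamp2, whose window does not hold GGCGCC (chr7:30943980-30944279 and chr7:30924132-30924431, minus strand).
Hamp: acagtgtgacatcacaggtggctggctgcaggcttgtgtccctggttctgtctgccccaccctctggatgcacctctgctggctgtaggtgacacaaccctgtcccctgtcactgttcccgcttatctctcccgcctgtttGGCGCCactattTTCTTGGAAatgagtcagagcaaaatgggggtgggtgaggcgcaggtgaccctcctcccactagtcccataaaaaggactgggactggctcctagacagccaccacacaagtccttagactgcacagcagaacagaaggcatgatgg
Hamp2: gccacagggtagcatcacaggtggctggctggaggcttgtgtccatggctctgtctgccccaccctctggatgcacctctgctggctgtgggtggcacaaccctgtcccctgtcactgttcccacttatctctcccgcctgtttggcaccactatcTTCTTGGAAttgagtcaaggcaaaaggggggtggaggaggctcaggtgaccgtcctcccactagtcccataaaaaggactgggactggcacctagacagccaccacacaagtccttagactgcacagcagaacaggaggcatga

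Both hepcidin genes were highest in DoubleTg luminal-like clusters 16, 15 and 9, of which cluster 15 was also among the 3 richest in Reg3b and in Reg3g. Hamp was 301.5 CPM in the Prr9-led cluster 16, 268 CPM in the Aldh1a3-led cluster 15 and 136 CPM in cluster 9, a population led by 9530053A07Rik with Tgm4 at 13140 CPM. Hamp2 was 51.8 CPM in cluster 16, 27.3 CPM in cluster 9 and 23.1 CPM in cluster 15. Hamp was above the macrophage-like level in 6 of 10 luminal-like clusters, and Hamp2 above the dendritic-like level of 0.586 CPM in 5 of 10. In the Sbpl-led cluster 5 Hamp was 1.34 CPM, below the 16.4 CPM of macrophage-like cells. Hamp was also uneven between cells: 77 cells (1.61%) held 50% of the luminal-like UMIs, and 26.6% of cluster 16 cells held a UMI at 5000 UMIs per cell. At that depth, among 4686 luminal-like cells, those with both genes numbered 111, of 534 with Hamp and 193 with Hamp2.

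Both hepcidin genes were lower in TripleTg luminal-like cells, and the clusters richest in Hamp stood less far above free RNA. Hamp was 20.1 CPM in luminal-like cells against 104 CPM in DoubleTg, 5.17-fold lower (log2 ratio -2.37, interval -2.43 to -2.31). Without DoubleTg cluster 15 the log2 ratio was -1.77, and with the macrophage-like level taken off it was -3.28. Its TripleTg luminal-like clusters spanned 8.78 to 28.0 CPM, against 1.34 to 301.5 CPM in DoubleTg, with the lowest clusters under the macrophage-like level in both libraries, and the intervals of the 2 highest clusters overlapped. Of these clusters 6 of 9 were above the macrophage-like level of 11.1 CPM, while the endothelial-like cells had 25.8 CPM. In seminal vesicle-like cells Hamp was higher in TripleTg, at 45.0 against 9.88 CPM (log2 ratio 2.19, interval 1.79 to 2.62), and they held 24.9% of its TripleTg UMIs. That class was made of unlike clusters, since 449 of its 589 TripleTg cells were the Crisp1-led cluster 8, with seminal vesicle markers higher by 1.53 on the log2 scale against 7.06 in the single DoubleTg cluster. Hamp2 was 0.432 CPM against 13.35 CPM (log2 ratio -4.95, interval -5.33 to -4.59) and above the macrophage-like level in 0 of 9 clusters. Of the 147 Hamp2 UMIs left in TripleTg, 55.8% lay in seminal vesicle-like cells, with 10.7 CPM in the Sva-led cluster 17.

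Pigr (chromosome 1, 130826684 to 130852249, plus strand, 11 exons) carries polymeric IgA and IgM from the stroma to the lumen. It was found across all 10 DoubleTg luminal-like clusters, each above the macrophage-like level, although clusters 9, 15 and 16 were below or near the levels of T and NK-like, smooth muscle-like and endothelial-like cells. The range was from 177 CPM in the 9530053A07Rik-led cluster 9 to 2884 CPM in the Spink5-led cluster 10, where 98.5% of cells held a UMI at 5000 UMIs. The Sbpl-led cluster 5, lowest for the Reg3 lectins and for Hamp, was second at 1326 CPM, and the Fxyd4-led cluster 11 had 1151 CPM. The clusters richest in Hamp were among the lowest in Pigr, with 226 CPM in cluster 16 and 320 CPM in cluster 15. In TripleTg luminal-like cells Pigr was 133 CPM against 922 CPM, 6.95-fold lower (log2 ratio -2.80, interval -2.82 to -2.77). It was kept above the macrophage-like and dendritic-like level in 7 of 9 clusters, the exceptions being the Krt42-led cluster 6 at 17.7 CPM and the Krt73-led cluster 19 at 32.4 CPM. The highest, the Serpinb1a-led cluster 7, had 397 CPM, with 66.7% of its cells positive at 5000 UMIs.

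Slpi (chromosome 2, 164354070 to 164389095, minus strand, 4 exons) inhibits neutrophil elastase and cathepsin G. In DoubleTg luminal-like cells it was 1.53 CPM, with 295 UMIs in 4779 cells, of which 4 cells held 50%. No DoubleTg luminal-like cluster was above the macrophage-like level of 60 CPM, which came from 10 of 276 cells, and dendritic-like cells had 0.586 CPM. The interferon-led cluster 2 was above the dendritic-like level, at 12.9 CPM from 4 of its 111 cells. The seminal vesicle-like cells had 119 CPM. In TripleTg luminal-like cells Slpi was 473 CPM. The log2 ratio of the summed UMIs was 8.27, over a summed DoubleTg level that was not above that of macrophage-like or dendritic-like cells. Its highest level was 1676 CPM in the Krt73-led cluster 19, followed by 811 CPM in cluster 2, and cluster 19 held 44.1% of the luminal-like UMIs. The 10 leading genes of cluster 19 included Krt73, Tchh, Lce3f, Cnfn and Rptn, genes of hair sheath or cornified epithelium. Without cluster 19 the TripleTg level was 302 CPM and the log2 ratio 7.63. The Upk1b-led cluster 9 (122 CPM) and the Coch-led cluster 11 (66.7 CPM) were not above the macrophage-like level of 141 CPM. Slpi UMIs were also found in 26.9% of TripleTg macrophage-like cells and 16.9% of endothelial-like cells at 5000 UMIs, against 42.1% of luminal-like cells (3427 of 4745 before thinning). At that depth they were in 27.45% of fibroblast-like, 30.95% of dendritic-like and 10.6% of smooth muscle-like cells. Fibroblast-like and smooth muscle-like cells had 177 and 149 CPM.

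Rnase1 (chromosome 14, 51144998 to 51146785, minus strand, 2 exons) is a secreted ribonuclease of the pancreatic type. Its DoubleTg pattern was that of hepcidin in part, with 661 CPM in the Prr9-led cluster 16 and 561 CPM in the 9530053A07Rik-led cluster 9, and 2.16 to 6.15 CPM in clusters 4, 5 and 10, which were not above the dendritic-like level of 12.3 CPM. At 5000 UMIs per cell 84.1% of cluster 16 cells and 75.3% of cluster 9 cells held a UMI. It was kept in TripleTg, at 154 CPM against 199 CPM in luminal-like cells (log2 ratio -0.37, interval -0.39 to -0.34), and 34.6% and 34.0% of cells were positive at 5000 UMIs (2704 of 4779 and 2962 of 4745 cells before thinning). With each of the 19 luminal-like clusters left out in turn the log2 ratio lay between -0.64 and 0.049, within 2-fold throughout, and only its sign depended on a cluster, being positive without DoubleTg cluster 16 (149 and 154 CPM). In TripleTg all 9 luminal-like clusters were above the macrophage-like level, although clusters 19 (30.3 CPM) and 6 (33.8 CPM) were below the fibroblast-like level of 62.3 CPM. The highest were 426 CPM in the Serpinb1a-led cluster 7 and 305 CPM in the Upk1b-led cluster 9.

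Lrg1 (chromosome 17, 56119678 to 56122001, minus strand, 2 exons) is a leucine-rich glycoprotein of liver, endothelium and neutrophils. All 10 DoubleTg luminal-like clusters had it above the macrophage-like level of 5.88 CPM, from 38.6 CPM in the Sbpl-led cluster 5 to 367 CPM in the Fxyd4-led cluster 11 and 328 CPM in the Msmb-led cluster 12, the same pair that was richest in Reg3b. Cluster 5 was below the 68.2 CPM of T and NK-like cells and the 40.8 CPM of smooth muscle-like cells. At 5000 UMIs per cell 60.8% of cluster 11 cells were positive. In TripleTg luminal-like cells it was 10.96 CPM against 183 CPM, which was not above the TripleTg macrophage-like level of 8.96 CPM (interval up to 11.9). The log2 ratio of the summed UMIs was -4.06, and -6.47 with the macrophage-like level taken off in each library. In TripleTg only the Coch-led cluster 11 (24.1 CPM) and the interferon-led cluster 15 (44.3 CPM) were above the macrophage-like level. Endothelial-like cells kept it, with 558 CPM in DoubleTg and 426 CPM in TripleTg.

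**Figure D4:**
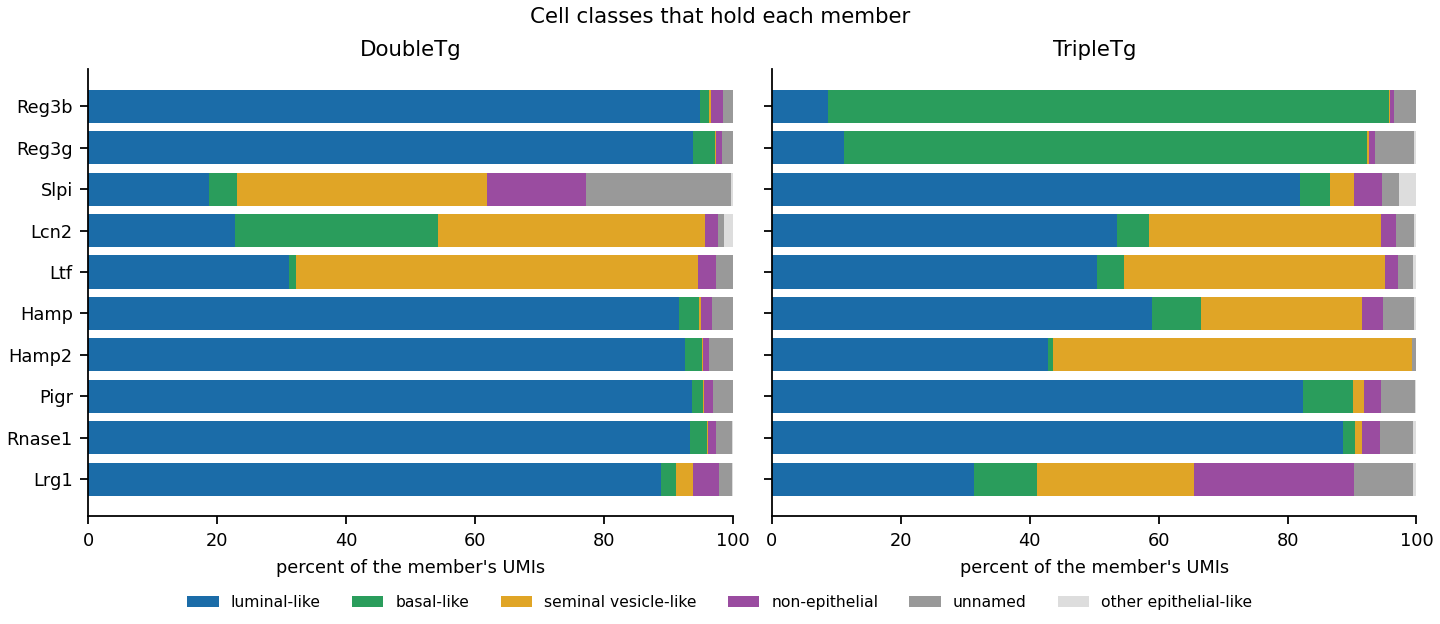
Percent of each member's UMIs that lay in luminal-like, basal-like, seminal vesicle-like, other epithelial-like, non-epithelial and unnamed clusters, in DoubleTg (left) and TripleTg (right). Luminal-like cells held 94.9% of Reg3b UMIs in DoubleTg and 8.68% in TripleTg, and 18.7% and 81.9% of Slpi UMIs.

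Luminal-like cells held between 88.8% and 94.9% of the UMIs of Reg3b, Reg3g, Pigr, Hamp, Hamp2, Rnase1 and Lrg1 in DoubleTg. In TripleTg they still held 82.4% of Pigr and 88.6% of Rnase1 UMIs, but 8.68% of Reg3b, 11.2% of Reg3g and 31.3% of Lrg1 UMIs. Basal-like cells held 87.1% of Reg3b and 81.2% of Reg3g UMIs in TripleTg. For Lrg1, 24.8% of TripleTg UMIs lay in non-epithelial cells against 4.01% in DoubleTg. The luminal-like share of Slpi UMIs was 18.7% in DoubleTg and 81.9% in TripleTg.

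A single DoubleTg basal-like cluster had far higher Pigr, Hamp and Rnase1 than the others. This cluster 20, led by Calcb, Krt16 and Aqp3, held 323 CPM of Pigr, 101 CPM of Hamp and 167 CPM of Rnase1. The other DoubleTg basal-like clusters had at most 82.8, 7.41 and 10.5 CPM. In cluster 20 proximal luminal markers summed to 27140 CPM, and 58 of its 121 cells passed the doublet threshold. With it, Pigr, Hamp, Rnase1 and Lrg1 were lower in TripleTg basal-like cells, with log2 ratios of -0.32, -0.45, -0.77 and -0.47. Without it, the ratios turned to 0.60, 1.38, 1.66 and 1.86. Slpi (2.201 and 168 CPM) and Ltf (1.10 and 278 CPM) were higher in TripleTg basal-like cells with and without either cluster, although 11 of 992 cells held 50% of the TripleTg Ltf UMIs.

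Across the DoubleTg luminal-like clusters, the genes most like each member were listed. The measure was Pearson's r of log2(CPM + 1) over 10 clusters of 1 library, among 6368 genes with at least 20 CPM in a cluster, given as a description. Pigr was most like Chpt1 (r = 0.98), Dach2 (0.97) and Atp2c2 (0.96), a calcium pump gene of secretory epithelia. Rnase1 was most like Cpe (0.97), Mras (0.97) and Gm5615 (0.97), Hamp most like Tuba8 (0.96), Stk25 (0.96) and B2m (0.95), the light chain of MHC class I, and Hamp2 most like Entpd7 (0.97), BC029722 (0.96) and Ggct (0.96). Lcn2 was most like Atl3 (0.97), Gpx2 (0.97), a glutathione peroxidase, and Cotl1 (0.96). For Reg3g they were Snhg18 (0.98), Iah1 (0.96) and Pef1 (0.96), for Reg3b Bmyc (0.94), Cat (0.92), which encodes catalase, and Camk1d (0.91), and for Lrg1 Tmem159 (0.94), Chodl (0.93) and Pdlim2 (0.92). These are the best of 6368 genes over 10 clusters, so a high r follows in part from the choice. Slpi and Ltf are left out, since most of their DoubleTg luminal-like clusters were not above the macrophage-like level.

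A list of 45 other mucosal defence genes was followed in luminal-like cells. Of its 20 members with at least 5 CPM in either library, 7 were at least 2-fold higher and 10 at least 2-fold lower in TripleTg, which is 35% and 50% of them against 11.8% and 12.7% of all genes. The median log2 ratio was -1.40 against -0.01 over all genes. This list was chosen with earlier results of these data known, so its shares are a description and no test of the gene class. The lower genes with the highest levels were Spink5, a serine protease inhibitor (1261 and 12.8 CPM), Wfdc2, a WAP-domain protein (737 and 147 CPM), Defb1, a beta-defensin (733 and 94.9 CPM), and Agr2, which folds mucins (649 and 14.4 CPM). The higher ones were Lyz2 (1.16 and 34.7 CPM), Wfdc15b (12.2 and 26.0 CPM), S100a8 (0.544 and 19.4 CPM), S100a9 (0.694 and 45.3 CPM), Jchain (6.31 and 25.6 CPM), Hp (0.228 and 9.65 CPM) and C3 (0.860 and 29.2 CPM). Lyz2, S100a8, S100a9, Jchain and Hp are known chiefly from myeloid cells, plasma cells or liver, and the part of free RNA in their levels was not tested. S100a8 and S100a9 were highest, at 62.6 and 261 CPM, in the Krt73-led cluster 19, the one richest in Slpi. Their levels without that cluster were not computed. C3 reached 116 CPM in the interferon-led cluster 15, the one richest in Lcn2.

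A list of 16 genes held receptors and factors of the inducing pathways with their feedback inhibitors, such as Nfkbia and Socs3. Of the 14 at 5 CPM or more, 3 (21.4%, against 11.8% of all genes) were at least 2-fold higher in TripleTg and 0 (against 12.7%) at least 2-fold lower, with a median of 0.25 against -0.01. The 3 were Nfkbiz, the nuclear IκB protein that serves interleukin-17 targets (44.1 and 206 CPM), Il1r1, the interleukin-1 receptor (14.2 and 62.4 CPM), and the factor Cebpb (218 and 526.5 CPM). Stat3 was 90.7 and 71.4 CPM, and the interleukin-22 receptor gene Il22ra1 was at 0.093 and 0.165 CPM. Of 17 iron genes, 13 were at 5 CPM or more. At least 2-fold higher were 6 of them (46.2%, against 11.8% of all genes) and at least 2-fold lower 0 (against 12.7%), with a median of 0.88 against -0.01. The higher ones were Slc40a1, which encodes ferroportin (10.2 and 99.4 CPM), Bmp2 (9.57 and 123 CPM), Smad7 (42.0 and 139 CPM), Cp, which encodes ceruloplasmin (42.5 and 94.6 CPM), the transferrin receptor gene Tfrc (7.21 and 36.8 CPM) and Trf, which encodes transferrin (0.373 and 15.8 CPM). Slc40a1 was highest, at 365 CPM, in the Krt73-led cluster 19. Both lists were also chosen with earlier results of these data known, so their shares are a description and no test.

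The promoter windows of all 10 members were in the RefSeq set of 32851 promoters. RefSeq starts differ from the GENCODE spans given above for some members. The windows of Lcn2, Hamp2 and Slpi lie inside those spans, and that of Reg3b almost wholly. The letters TTGCNNAA of C/EBP factors, on either strand, were in the windows of Lcn2, Ltf and Slpi, which are the 3 members higher in TripleTg luminal-like cells, and in 10.8% of all promoters. These matches, in capitals with up to 20 bases on each side, began 216 bases before the start for Lcn2, 75 for Ltf and 241 for Slpi, the last 2 as the letters of the opposite strand (GRCm38.p6, chr2:32387928-32387975 minus, chr9:111019197-111019244 plus and chr2:164356721-164356757 minus).
Lcn2: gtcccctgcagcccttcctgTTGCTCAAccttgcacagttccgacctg
Ltf: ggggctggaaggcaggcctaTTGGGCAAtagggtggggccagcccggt
Slpi: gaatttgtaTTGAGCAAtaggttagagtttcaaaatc
The STAT letters TTCNNNGAA were in Reg3b, Pigr, Hamp and Hamp2, which were lower in TripleTg luminal-like cells, in Rnase1, and in 8.30% of all promoters. TCF letters (CTTTGAT, either strand) were in Reg3g and in 3.73% of all promoters, GGCGCC in Hamp and in 11.9%, and an NF-kappaB match in Reg3g and Rnase1 and in 9.38%. A match is a description of the sequence, and its use in these cells was not measured. The members were chosen from these same levels, and a link of any motif to the direction of a ratio was not tested.

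**Figure D5:**
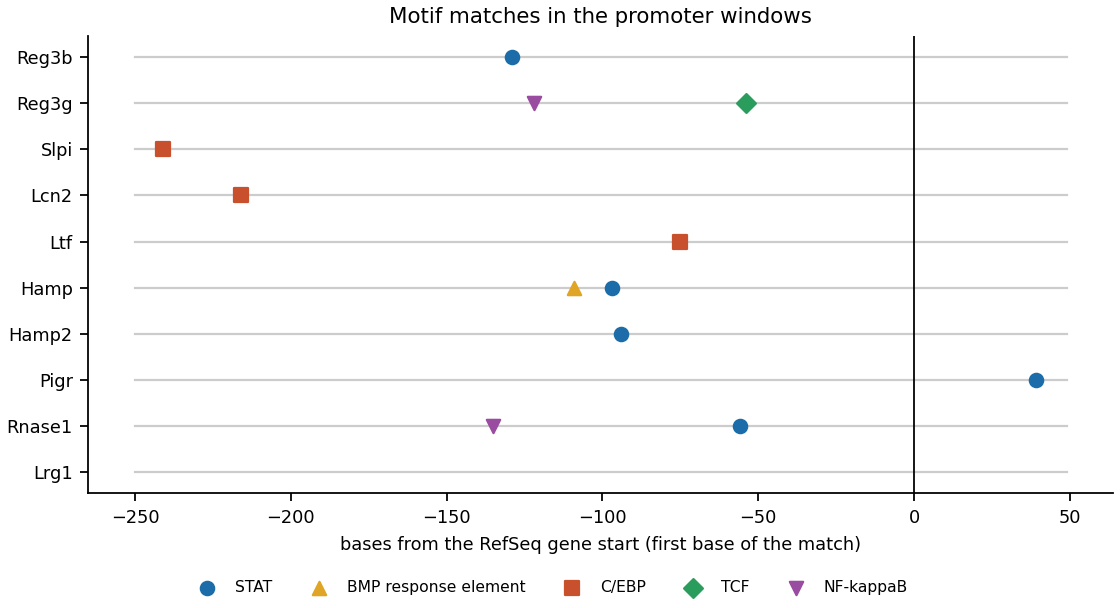
First base of each motif match in the promoter window of each member, in bases from the RefSeq start (0), for STAT, BMP response element, C/EBP, TCF and NF-kappaB letters. C/EBP matches fall in Slpi, Lcn2 and Ltf, at -241, -216 and -75, and Lrg1 has no match.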

How the data were processed

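Prostate cells of 1 DoubleTg and 1 TripleTg library were captured with the third version of 10x 3′ chemistry. The deposited matrices hold raw UMI counts per gene and cell, which the authors made with Cell Ranger on mm10 (6.0.2 in the submitters' processing notes, 6.1.1 in the DoubleTg matrix header, none in the other). Of the 12072 and 9492 cells deposited, those with more than 200 genes, fewer than 7000 genes and mitochondrial UMIs below 15% were kept. These limits left out 1474 DoubleTg and 0 TripleTg cells: every cell in the TripleTg matrix already lay inside them, so the matrices reached the filter in different states, and the study's methods name more TripleTg cells before its filter. For DoubleTg the methods give slightly fewer cells before the same limits and fewer after them than found here.

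Each library was clustered with scanpy 1.11.5 and igraph 0.11.9 (2000 variable genes without the members, 20 components, 15 neighbours, Leiden resolution 1), under Python 3.11.15. Clusters were named from fixed marker lists. The thresholds for naming were set after the clusters were seen, and no feature was found for the markers Trbc2, Ighm and Igkc or the listed genes Chi3l1, Cebpd and Hjv. Doublets were scored with Scrublet and kept. It called 266 DoubleTg and 0 TripleTg cells, so its TripleTg threshold is not used, and the DoubleTg threshold applied to both libraries gave 266 and 164.

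UMIs were summed per cluster or class and given as CPM with exact Poisson intervals. Shares of cells given at 5000 UMIs carry exact Clopper-Pearson intervals in the analysis. They were taken after thinning each cell to 5000 UMIs, which left out 2171 DoubleTg and 1699 TripleTg shallower cells. Shares and cell counts not given at that depth, such as those of hMETtg and of marker genes, used all UMIs of each cell. Ratios have conditional binomial intervals (95%, scipy 1.17.1). They were run on simulated Poisson counts, which share the model of the interval, so this checks the calculation only. The simulation held no variation between cells, mice or libraries. With 1 library per genotype no p-value is given. The background is the share past 2-fold among genes reaching 5 CPM in 1 library or both. The members and lists were chosen with earlier results of these data known. Named genes were all members, the 3 genes most like each (not printed for Slpi and Ltf), and, per list, those past 2-fold with the highest CPM. Further named genes of a list, with their clusters, were chosen after their values were seen. Alternatives covered cells, depth, scaling (edgeR 4.0.16 in R 4.3.3), weighting, filters, doublets and clustering. Promoters were compared with Biopython 1.88. All columns of values were used (0 not used).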

Additional observations from a re-analysis of the deposited data

Results flagged for a closer look

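Reg3b and Reg3g lay in opposite directions in the 2 epithelial classes, which is why they are listed here. The log2 ratio of TripleTg over DoubleTg was -5.06 for Reg3b in luminal-like cells and 4.30 in basal-like cells. For Reg3g it was -6.22 in luminal-like and 1.40 in basal-like cells. The difference between the classes was not tested, since each genotype had 1 library. Without the TripleTg basal-like cluster led by Reg3b, Reg1 and Reg3g, the basal-like ratios were -3.01 and -2.60, in the same direction as in luminal-like cells. The opposite directions thus rest on the basal-like name of that cluster. Its basal markers were seen in a mean of 65.5% of cells, where the name asked for 60%.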

How the results depend on the processing

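The counts of 3 members at least 2-fold higher and 6 at least 2-fold lower in TripleTg luminal-like cells were the same under the 12 alternatives run, 1 of them void for Slpi, and no member ratio changed direction under them. The Reg3b ratio had the widest range among the lower members, from -7.56 in cells with hMETtg to -1.63 with the members allowed among the clustering genes. Taking off the macrophage-like level is void for Slpi, which was higher in DoubleTg macrophage-like than luminal-like cells. Doublet removal at each library's own threshold was not run, as 0 TripleTg cells were called. Alternatives chosen after seeing the data were the common doublet threshold, the macrophage-like level taken off, and clusters left out. With the DoubleTg Prr9-led cluster left out, the Rnase1 ratio was 0.049. In basal-like cells the ratios turned to -3.01 for Reg3b and -2.60 for Reg3g without the TripleTg Reg3b-led cluster, and to 0.60 for Pigr, 1.38 for Hamp, 1.66 for Rnase1 and 1.86 for Lrg1 without the DoubleTg Calcb-led cluster. Among all genes, 14.7% were higher and 14.5% lower at a minimum of 1 CPM. No paired analysis was possible because each genotype had 1 library. The Hamp2 ratio in basal-like cells rests on 1 TripleTg UMI and has a wide interval, -11.12 to -3.27.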

Other observations

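The members were also compared between luminal-like cells with and without a UMI of hMETtg, the transgene that Cre switches on. In DoubleTg, Reg3b was 86.1 CPM in the 4063 cells with hMETtg and 24.5 CPM in the 716 without, and Reg3g was 147 and 52.7 CPM, while Ltf was 3.77 and 11.7 CPM. In TripleTg, Slpi was 642 CPM in the 1646 cells with hMETtg and 343 CPM in the 3099 without, and Ltf was 647 and 449 CPM, whereas Lcn2 was 554 and 676 CPM, Reg3b 0.457 and 3.81 CPM and Reg3g 0.789 and 2.62 CPM, the lectins being higher without hMETtg there. The cells with hMETtg were also deeper, with medians of 37269 against 27936 UMIs in DoubleTg and 33839 against 22966 UMIs in TripleTg. They were also spread differently over the clusters. hMETtg was 37.3 CPM in DoubleTg cluster 4, the richest in Ltf, and 131 CPM in cluster 5, the poorest in Reg3b and Reg3g, against 299 to 821 CPM in the other DoubleTg luminal-like clusters. The part of depth and of cluster in these values was not tested.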
